A study of Homo sapiens with 24 samples.

Results

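The genes described here are 9 genes that carry or set the splicing program of epithelial cells: the splicing factors ESRP1 and ESRP2, their known target genes CD44, ENAH, CTNND1 and ARHGEF11, and the epithelial adhesion genes CDH1, EPCAM and ITGA6. They were chosen by name, and their rows are the splice junctions and exon-intron boundaries that lie on the strand and within the span of each gene in the GENCODE annotation of GRCh37. This gave 2293 rows of the 1823643 used in the series, of which 685 were boundaries and 1608 were spliced junctions. The spans were chr11:35160429-35253949 for CD44, chr11:57520715-57587018 for CTNND1, chr1:225674467-225840844 for ENAH, chr1:156904632-157015534 for ARHGEF11, chr8:95653302-95719694 for ESRP1, chr16:68262936-68272005 for ESRP2, chr2:47572297-47614740 for EPCAM, chr16:68771195-68869440 for CDH1 and chr2:173292082-173371187 for ITGA6. All 24 samples came from HCT-116, a human colorectal carcinoma cell line that expressed, from a lentivirus and after blasticidin selection, either wild-type PHF5A (WT) or PHF5A with the Y36C substitution (Y36C). Each line was given DMSO, the solvent, or E7107, a splicing modulator that binds the SF3b complex, for 6 h. Every one of the 4 combinations of line and treatment has 6 samples. The labels give no dose, and nothing in them says that the samples of a group came from separate cultures, so p-values measure only the spread between these samples, which may be technical. The files hold percentages only, so the amount of each transcript and the number of reads behind a percentage are unknown.

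The epithelial splicing program is a set of alternative exons that epithelial cells include and mesenchymal cells skip, or the reverse. ESRP1 and ESRP2 are RNA-binding proteins that direct much of this choice. Their best known targets are the block of variable exons in CD44, a receptor for hyaluronan, exon 11a of ENAH, which encodes an actin regulator, the early exons of CTNND1, which encodes the p120 catenin that holds cadherins at the membrane, and a late exon of ARHGEF11, which encodes an activator of the GTPase RhoA. CDH1 encodes E-cadherin, EPCAM an epithelial cell adhesion molecule and ITGA6 the laminin receptor subunit integrin alpha 6. PHF5A is a subunit of SF3b, which recognises the branch point of an intron before splicing starts.

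The label of a colorectal carcinoma line was checked by which marker genes had splice sites with reads in all 24 samples. Of 10 intestinal epithelial markers 6 did, namely CDH1, EPCAM, KRT8, KRT18, KRT19 and CDX2, while VIL1, KRT20, CDX1 and LGALS4 did not. Of 7 mesenchymal markers VIM, ZEB1 and FN1 did, and of 5 fibroblast markers COL1A1 did. None of 4 leukocyte and 3 endothelial markers did. The number of splice sites with reads was 281164 to 283548 per sample in WT cells given E7107, below the 328458 to 340081 of the other 18 samples, and its part in the results was not tested. Within CD44 a median of 50 sites had reads in WT cells given E7107 against 57.5 under DMSO, and within ITGA6 56.5 against 54.5.

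A pair of measures was compared. The percent spliced in (PSI) of a boundary is the share of reads at a splice site that run on into the intron, and it was read as the unspliced share at that intron end. The spliced share of a junction is its part of the spliced reads alone at a splice site, and it was used for exon skipping because intron reads do not enter it. Differences were tested with limma on the log odds of the percentage, with adjustment over all rows of the series, and a row was called at an adjusted p of at most 0.05. Rows entered a test with a mean from 1% to 99% over the samples compared. A row near 0 under DMSO therefore entered a test of E7107 only where its E7107 values were higher. Such a row could only be called as a rise. The same filter held for all rows of the series.

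Without drug no row of these genes was called different between the lines. Of 494 member rows tested for PSI between Y36C and WT cells under DMSO 0 were called, beside 0.0294% of all rows, and 47 had an unadjusted p under 0.05. Of 222 tested for spliced share 0 were called, beside 0.0265% of all rows, and 11 had an unadjusted p under 0.05.

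E7107 raised the unspliced share across most of the 9 genes in WT cells and far less in Y36C cells. In WT cells 207 of 294 member boundaries tested rose, 70.4%, beside 50.3% of all boundaries, and 17 fell, beside 4.26%. The median change was 10.6 percentage points over the members and 7.10 over all boundaries tested. Of the 207 rises 68 were in ARHGEF11, 50 in ITGA6 and 28 in ESRP2. The share that rose was 100% in ESRP2, 98% in ITGA6, 91.9% in ARHGEF11, 83.3% in EPCAM, 68.4% in CTNND1 and 60.7% in ENAH. It was below that of all boundaries in ESRP1, CDH1 and CD44, at 25.9%, 18.8% and 11.5%. In Y36C cells 40 of 185 rose, 21.6%, beside 13.3% of all boundaries, and 0 fell, beside 0.575%. There the median change was 2.16 points, and 1.82 over all boundaries. Of these 40 rises 14 were in CD44, of 25 boundaries tested there, and 13 of the 14 lay in its introns 5 to 14. The share that rose was 50% of 6 in EPCAM, 33.3% in ENAH, 26.7% in ESRP2, 24% in ITGA6 and 10.2% in ARHGEF11. It was 0 in CTNND1, ESRP1 and CDH1. The filter on the mean let in 294 member boundaries in WT cells, 185 in Y36C cells and 176 under DMSO. The shares of the lines are thus not over the same boundaries, and rows near 0 under DMSO add only to the rises. Tested directly as an interaction, 177 of 275 member boundaries had a lower effect of E7107 in the Y36C line than in the WT line, beside 41.3% of all boundaries, and 18 had a higher one, beside 6.48%. All 17 boundaries that fell in WT cells, and all 18 at which the effect was higher in Y36C cells, were in CD44.

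Exon skipping rose mainly in Y36C cells. A row counted as skipping where its junction spans an annotated internal exon, so junctions from CD44 exon 5 to a later variable exon count too. In Y36C cells the spliced share of 37 of 119 exon-skipping rows rose, 31.1%, beside 17.3% of all such rows, and 5 fell, beside 2.22%. Of the 5 that fell 2 were such CD44 junctions. In WT cells 5 of 126 rose, 3.97%, beside 12.6% of all such rows, and 4 fell, beside 3.85%. The interaction was higher in Y36C cells at 25 of 114 rows, beside 12.9% of all, and lower at 3, beside 9.65%. A junction is measured once at its donor and once at its acceptor, so the 37 rows that rose in Y36C cells stand for 22 junctions and the 5 in WT cells for 3.

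The genes differed widely in how much unspliced RNA they held. For each sample the median boundary PSI was taken over the intron ends of the reference (MANE Select) transcript that had reads in all 24 samples. In ESRP2, over 28 intron ends, it was 6.96% ± 0.86 (SD, n = 6) in WT cells under DMSO and 48.8% ± 3.28 under E7107, and 6.63% ± 1.29 and 12.2% ± 1.15 in Y36C cells. In ARHGEF11, over 74 ends, it went from 0.253% ± 0.619 to 39.2% ± 5.22 in WT cells, and was listed at 0 in all 6 Y36C samples under DMSO and at 1.28% ± 1.01 under E7107. In ITGA6, over 50 ends, the WT value went from 0.908% ± 0.192 to 12.9% ± 1.69, and the Y36C value from 0.586% ± 0.175 to 1.07% ± 0.34. These 3 genes had the highest values of the 9 in WT cells under E7107. In each of them, and also in CTNND1, ENAH and EPCAM, the lowest WT sample under E7107 lay above every sample of the other 3 groups.

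The remaining genes kept low values. CTNND1 reached 5.49% ± 1.56 in WT cells under E7107, ENAH 3.86% ± 1.65, ESRP1 3.05% ± 0.97 and EPCAM 1.30% ± 0.15, each from under 0.5% with DMSO. The median of CDH1 was 0.277% ± 0.678 in WT cells under DMSO, with 1 sample above 0, and 0 in every other sample. CD44 fell, from 2.60% ± 0.34 to 1.28% ± 0.28 in WT cells, and it went from 2.65% ± 0.44 to 4.6% ± 1.33 in Y36C cells.

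**Figure D1:**
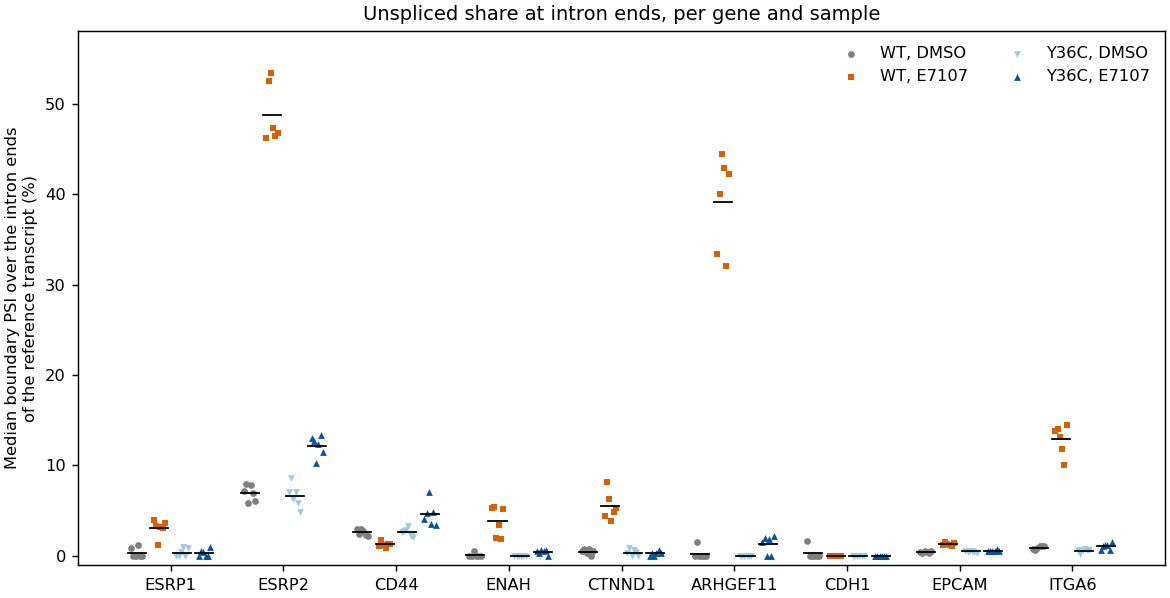
Median boundary PSI (%, vertical axis) over the intron ends of the reference transcript with reads in all 24 samples, for each of the 9 genes (horizontal axis). Each point is 1 sample, marked by group, and the black lines are group means of 6 samples. ESRP2, ARHGEF11 and ITGA6 stand apart in WT cells under E7107, at means of 48.8%, 39.2% and 12.9%, and the WT mean of CD44 falls, to 1.28%.

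Intron length and base composition were set beside these values. Over the 158 introns with both ends read in all samples, the change in WT cells had a Spearman correlation of -0.46 with intron length and 0.48 with GC content, as a description across introns that share genes and samples. Without the 35 introns of ARHGEF11 the correlation was -0.43 with length and 0.13 with GC content. Within genes the sign for length was not fixed, at -0.53 in the 13 introns of ENAH and 0.39 in the 16 of CTNND1. Nor was the sign for GC content, at 0.62 in the 17 introns of CD44 and -0.36 in the 25 of ITGA6. Within the 14 introns of ESRP2 it was 0.03. The introns of ESRP2 had a median length of 109 bases and a GC content of 60.3%, the shortest and richest of the 9 genes, and those of ARHGEF11 came next on both, at 884 bases and 49.4%.

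ESRP2, one of the factors of the program, retained its introns along its whole length in WT cells. All 28 of its boundaries tested rose in WT cells, beside 50.3% of all boundaries. At 25 the effect was lower in Y36C cells, 89.3% beside 41.3%. The largest change was at the acceptor of intron 10, where the PSI in WT cells had a lowest, median and highest value of 5.26%, 6.40% and 24.8% under DMSO and of 48.3%, 64.8% and 78.9% under E7107. In Y36C cells the same acceptor had 5.32%, 10.5% and 17.7% under DMSO and 3.66%, 13.2% and 22.4% under E7107. The WT groups did not overlap and the Y36C groups did. The log odds rose by 2.84 ± 0.33 (SE) in WT cells (adjusted p = 9.41e-06) and differed by 0.04 ± 0.34 in Y36C cells (adjusted p = 0.961), and the interaction was -2.80 ± 0.47 (adjusted p = 3.13e-05). The acceptor of intron 12 followed the same course, with means of 7.84% ± 4.17 and 57.3% ± 14.6 in WT cells (adjusted p = 0.000161) and 10.3% ± 2.65 and 14.6% ± 2.99 in Y36C cells (adjusted p = 0.213).

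A few ESRP2 introns also rose in Y36C cells, 8 of 30 boundaries in all, 26.7% beside 13.3% of all boundaries. The Y36C mean at the acceptor of intron 2 went from 37.5% ± 7.90 to 59.5% ± 5.21 (adjusted p = 0.00893), next to 22.7% ± 6.93 and 61.5% ± 11.2 in WT cells. At the acceptor of intron 7 it went from 21.8% ± 7.38 to 45.9% ± 5.82 (adjusted p = 0.00405), next to 17.6% ± 2.39 and 54.1% ± 6.28 in WT cells. The interaction was called at the first, -0.82 ± 0.31 (adjusted p = 0.0384), and not at the second, -0.55 ± 0.25 (adjusted p = 0.08). So at intron 7 the retention in Y36C cells could not be separated from that in WT cells.

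Introns 7 and 8 of ESRP2 enclose exon 8, which was also skipped more in Y36C cells. The 3 parts are shown whole because both the retention and the skipping fall on them. They lie on the minus strand at chr16:68266192-68266479 of GRCh37, and are written from 5′ to 3′ with the exon, chr16:68266274-68266406, in capitals.
ESRP2 introns 7 and 8 with exon 8: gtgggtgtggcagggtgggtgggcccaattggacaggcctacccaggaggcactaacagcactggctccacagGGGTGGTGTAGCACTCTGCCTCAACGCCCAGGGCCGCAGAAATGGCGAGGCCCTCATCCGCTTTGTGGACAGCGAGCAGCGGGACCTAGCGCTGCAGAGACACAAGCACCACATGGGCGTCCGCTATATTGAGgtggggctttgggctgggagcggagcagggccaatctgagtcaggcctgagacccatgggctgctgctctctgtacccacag
The skipping junction took, at its acceptor, a lowest, median and highest share of 2.38%, 12% and 21.5% of spliced reads in Y36C cells under DMSO and 19.1%, 27.2% and 34.8% under E7107. In WT cells it took 5.26%, 12.3% and 23.9% under DMSO and 0%, 3.57% and 7.14% under E7107. It thus rose in Y36C cells by 1.14 ± 0.34 in log odds (adjusted p = 0.0394) and fell in WT cells by 1.66 ± 0.51 (adjusted p = 0.0476), with an interaction of 2.79 ± 0.62 (adjusted p = 0.00203). Each treated group shared a little of its range with its DMSO group. Measured at its donor, the junction had an adjusted p of 0.0546 in Y36C cells and 0.104 in WT cells, and the interaction was called (adjusted p = 0.00688).

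ESRP1, the other factor, retained few introns in either line and skipped exons in Y36C cells. Only 7 of its 27 boundaries tested rose in WT cells, 25.9% beside 50.3% of all boundaries. In Y36C cells 0 of 15 were called, where 13.3% of all boundaries rose, and 2 had an unadjusted p under 0.05. The largest rise was at the acceptor of intron 2, from 0.413% ± 0.642 to 8.02% ± 3.82 in WT cells (adjusted p = 5.82e-05), next to 0.555% ± 0.610 and 1.82% ± 1.94 in Y36C cells. The junction that leaves out exons 14 and 15 together is an annotated one near the 3′ end of the gene. At its donor it took a lowest, median and highest share of 12%, 24.6% and 27.6% in Y36C cells under DMSO and 44.7%, 49.2% and 59.6% under E7107. The WT values were 16.1%, 17.9% and 21% under DMSO and 9.80%, 13.6% and 20% under E7107. Every treated Y36C sample lay above all 18 others. The log odds rose by 1.26 ± 0.21 in Y36C cells (adjusted p = 0.00165), the change of -0.33 ± 0.20 in WT cells was not called (adjusted p = 0.345), and the interaction was 1.59 ± 0.26 (adjusted p = 7.12e-05).

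**Figure D2:**
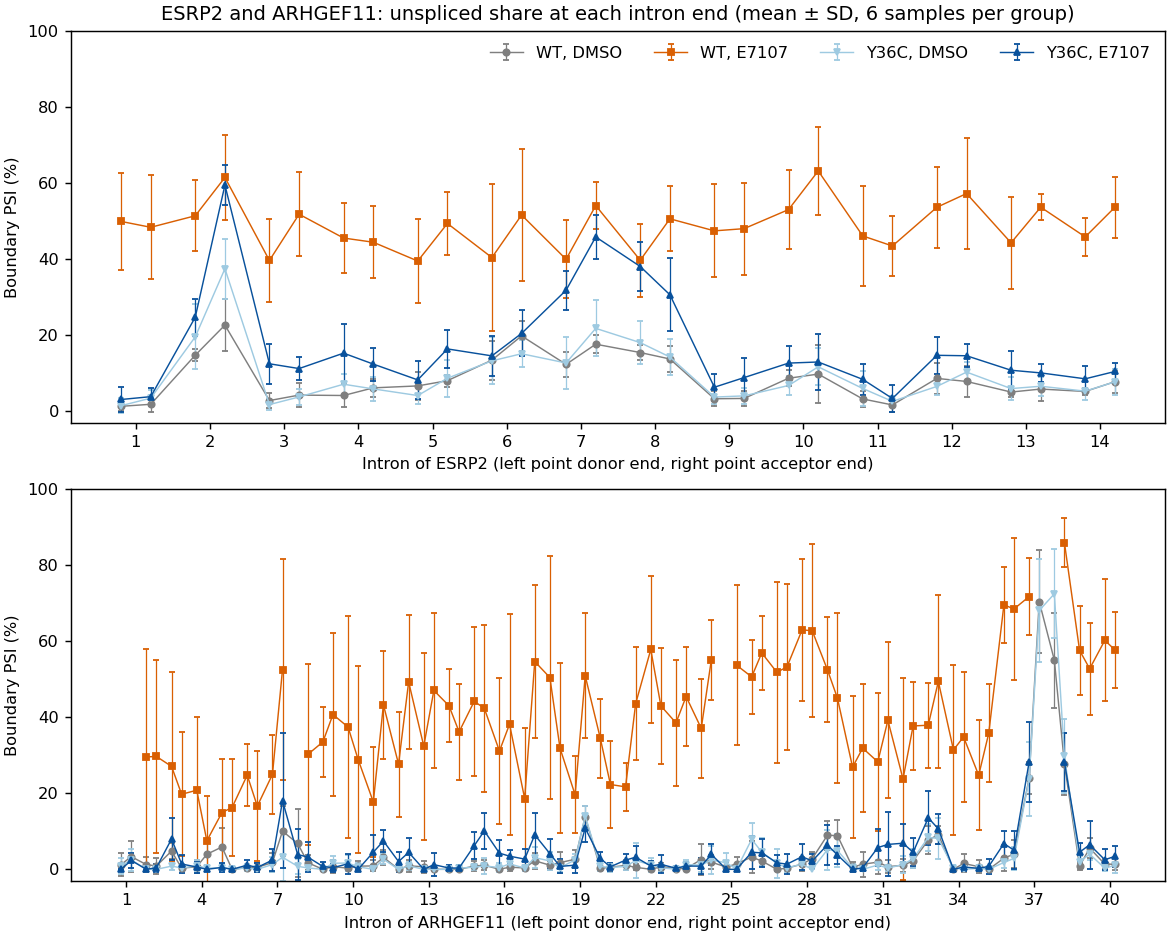
Boundary PSI (%, vertical axes) at each intron end of ESRP2 (upper panel) and ARHGEF11 (lower panel), with introns numbered 5′ to 3′ on the horizontal axes and the donor end left of the acceptor end. Points are means and bars SDs of 6 samples per group, and ends without reads in all samples of a group have no point. In WT cells under E7107 both genes are raised along their whole length, with 69.6% at the donor of ARHGEF11 intron 36, whereas the clearest rises of Y36C cells are at ESRP2 introns 2, 7 and 8.

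ARHGEF11 retained introns mainly in WT cells, and a rise of exon skipping was called more often in Y36C cells than in WT cells. In WT cells 68 of its 74 boundaries tested rose, 91.9% beside 50.3% of all boundaries. At 64 of 74, 86.5%, the effect was lower in Y36C cells, beside 41.3% of all boundaries. At the donor of intron 36 the PSI had lowest, median and highest values of 0%, 2.54% and 9.26% in WT cells under DMSO and of 50%, 73.2% and 76.9% under E7107 (log odds +4.37 ± 0.40, adjusted p = 1.29e-06). In Y36C cells it had 0%, 2.30% and 3.77% under DMSO and 1.89%, 7.76% and 10% under E7107, which was not called (adjusted p = 0.0506). The acceptor of the same intron went from 3.99% ± 3.62 to 68.5% ± 18.7 in WT cells (adjusted p = 1.37e-05). At the acceptor of intron 15 both lines were called, the WT mean going from 1.08% ± 1.26 to 42.4% ± 22.1 and the Y36C mean from 0.893% ± 2.19 to 10.1% ± 4.76, with a lower effect in Y36C cells (adjusted p = 0.0437). The acceptor of intron 7, of 10% ± 6.66 and 52.6% ± 29.1 in WT cells, was called in Y36C cells alone, at 3.19% ± 6.32 and 18.1% ± 17.8 (adjusted p = 0.0257), and the interaction was not called (adjusted p = 0.976).

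Of 24 ARHGEF11 skipping rows tested in Y36C cells 14 rose, for 7 junctions, 58.3% beside 17.3% of all such rows. Of 36 in WT cells 3 rose, 8.33% beside 12.6%. The interaction was higher in Y36C cells at 5 of 29, 17.2% beside 12.9% of all such rows. The largest rise was for exon 18, which was left out in 18.2%, 25% and 36.5% of spliced reads (lowest, median, highest) at its donor in treated Y36C cells, and in at most 2.94% under DMSO. The log odds rose by 3.29 ± 0.29 (adjusted p = 2.4e-05). In WT cells the same junction ran from 0% to 50% under E7107 with a median of 20%, against at most 4% under DMSO, a spread so wide that it was not called (adjusted p = 0.2), and the interaction was not called either (adjusted p = 0.284). The lack of a call in WT cells therefore does not separate the lines at this exon. A junction that left out exons 17 and 18 together was called in WT cells, at 0% in all 6 DMSO samples and at 0%, 29.2% and 37.5% under E7107 (adjusted p = 0.0371).

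Among the other exons with a called rise in Y36C cells were exon 4, from 1.14% to 13.3% of spliced reads at its acceptor, and exon 21, from 0% to 13.1%; these 2 were picked after their values were seen. For exon 4 the WT means were 1.92% and 2.08%, and the interaction was called. For exon 21 they were 0.51% and 8.35%, and it was not. The 3 exons are shown because they are among the short exons of the gene, of 50, 24 and 30 bases. Each is written 5′ to 3′ on the minus strand with 40 intron bases before it and 20 after it, and with the exon in capitals. They lie at chr1:156950229-156950278, chr1:156927584-156927607 and chr1:156924684-156924713 of GRCh37.
ARHGEF11 exon 4: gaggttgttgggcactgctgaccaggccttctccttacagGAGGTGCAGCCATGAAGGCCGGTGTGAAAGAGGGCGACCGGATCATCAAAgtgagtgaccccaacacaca
ARHGEF11 exon 18: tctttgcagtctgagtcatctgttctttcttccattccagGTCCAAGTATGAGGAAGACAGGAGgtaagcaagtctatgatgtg
ARHGEF11 exon 21: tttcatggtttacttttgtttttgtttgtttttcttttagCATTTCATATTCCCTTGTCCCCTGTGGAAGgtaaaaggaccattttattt
The exon known as a target of the program is exon 38, of 96 bases. The junction that skips it held 83.2% ± 5.36 of spliced reads at its acceptor in WT cells under DMSO and 97.2% ± 6.80 under E7107 (adjusted p = 0.00362), and 88.9% ± 3.45 and 94.9% ± 3.11 in Y36C cells (adjusted p = 0.14). The exon was thus mostly skipped in HCT-116 before any drug. At the donor of that junction neither line was called, with WT means of 85.7% and 88.9%.

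CD44 behaved unlike the other genes. Its reference transcript has 18 exons, of which exons 6 to 14 are the variable exons v2 to v10, and exons 5 and 15 are the constant exons on either side. Of the 19 boundaries tested in introns 5 to 14, which surround the variable exons, 16 fell in WT cells, beside 4.26% of all boundaries, and 1 rose. In Y36C cells 13 rose, beside 13.3% of all boundaries, and 0 fell. The effect differed between the lines at nearly all of these, 17 of which had the higher change in Y36C cells. The median PSI of these introns had a lowest, median and highest value over samples of 6.96%, 7.73% and 9.09% in WT cells under DMSO and of 1.55%, 2.36% and 3.03% under E7107. In Y36C cells it had 6.66%, 7.37% and 7.84% under DMSO and 15.3%, 17.9% and 19% under E7107. Neither line's groups overlapped, and the lines moved in opposite directions.

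At the acceptor of intron 5, which opens exon v2, the PSI in WT cells went from 35.1% ± 4.54 to 6.47% ± 3.16 (log odds fell by 2.01 ± 0.24, adjusted p = 1.07e-05) and in Y36C cells from 29% ± 6.93 to 56.3% ± 7.02 (log odds rose by 1.15 ± 0.21, adjusted p = 0.00337). The donor of intron 6, at the other end of v2, went from 32.7% ± 7.14 to 9.10% ± 2.74 in WT cells and from 29.1% ± 4.17 to 59% ± 3.63 in Y36C cells, with an interaction of 2.76 ± 0.24 (adjusted p = 1.76e-09). The value at such a site counts only reads that touch it, so it says nothing of CD44 transcripts that pass v2 over. At the other end of intron 5, the donor of the constant exon 5, the PSI rose in WT cells, from 5.77% to 16.3%.

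The constant introns held few unspliced reads. Of the 8 boundaries of introns 1 to 4 only 3 had a mean of 1% or more and could be tested in WT cells, of which 2 rose, and none of the 6 boundaries of introns 15 to 17 could be tested. The donor of intron 2 went from 0.391% to 14% in WT cells while the acceptor of the same intron went from 0.604% to 1.51%, so the reads ran into the intron at its start and were few at its end. In Y36C cells this donor had means of 0.798% and 0.432%.

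**Figure D3:**
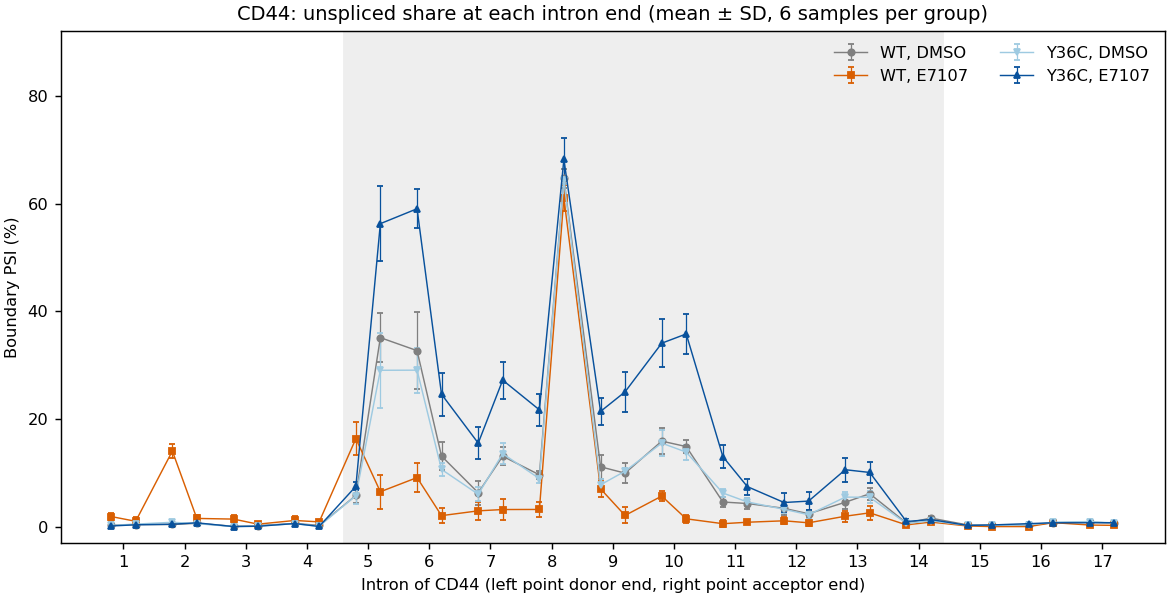
Boundary PSI (%, vertical axis) at the 2 ends of each CD44 intron, numbered 5′ to 3′ on the horizontal axis with the donor left of the acceptor. Points are means and bars SDs of 6 samples per group, and the shaded introns 5 to 14 surround the variable exons. From the acceptor of intron 5 to that of intron 7 the WT means under E7107 lie below and the Y36C means under E7107 above both DMSO groups, with 6.47% and 56.3% at the first of these sites.

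The spliced reads of CD44 were then followed from the donor of exon 5, where the choice among variable exons is made. In WT cells under DMSO this donor was joined to v3 in 33.2% ± 2.20 of spliced reads, to v8 in 25% ± 1.42, to exon 15 in 15.2% ± 1.47, to v2 in 11.9% ± 1.25 and to v6 in 8.03% ± 1.60. The joint to exon 15 leaves out all variable exons and gives the standard form of CD44. It took a lowest, median and highest share of 12.3%, 13.5% and 16.3% in Y36C cells under DMSO and of 32%, 34.7% and 37.2% under E7107. In WT cells it took 13.2%, 14.9% and 17% under DMSO and 8.77%, 11.6% and 13.6% under E7107. The treated Y36C samples all lay above every other sample, while the WT groups overlapped. The log odds rose by 1.16 ± 0.16 in Y36C cells (adjusted p = 0.0004), changed by -0.30 ± 0.18 in WT cells (adjusted p = 0.345), and the interaction was 1.46 ± 0.18 (adjusted p = 2.64e-06). Measured from the acceptor of exon 15 the Y36C mean went from 12.5% ± 1.63 to 31.2% ± 1.62 (adjusted p = 0.000573).

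At the donor of exon 5 the joints to v2, v3 and v6 fell and that to v4 did not. In Y36C cells the share joined to v2 fell from 14.7% ± 1.89 to 5.54% ± 0.69 (adjusted p = 0.00159), that to v3 from 33.2% ± 2.00 to 20.8% ± 1.42 (adjusted p = 0.0167) and that to v6 from 6.41% ± 1.16 to 2.88% ± 0.51 (adjusted p = 0.0154), while the joint to v4 had means of 2.15% and 2.46% (adjusted p = 0.732). The share joined to v8, the start of the v8 to v10 form that ESRP proteins favour, had means of 26.5% ± 1.57 and 28.7% ± 2.19 and was not called at this donor (adjusted p = 0.689). Joints to v9 and v10 stayed under 2% and were too rare for the test at this donor. At the acceptor a joint is measured against the other exons joined to the same variable exon, and there the pattern differed. The joint of exon 5 to v8 rose in Y36C cells, from 29.4% ± 2.14 to 44.1% ± 3.62 (adjusted p = 0.0197), and that to v4 from 4.66% ± 0.76 to 10% ± 1.79 (adjusted p = 0.0129), while those to v3, with 71% and 79.8%, and v6, with 12.2% and 10.9%, were not called. The joints to v9 and v10 rose at their acceptors as well, to 1.66% ± 0.77 at v9 (adjusted p = 0.0315) and 2.97% ± 0.93 at v10 (adjusted p = 0.00165). In WT cells none of the joints from exon 5 that were tested was called. The interaction was called for v2 (adjusted p = 0.000129) and v3 (adjusted p = 0.0112) at the donor, and for v4 at its acceptor (adjusted p = 0.0244). It was not called for v6 at the donor (adjusted p = 0.242) or for v8 at its acceptor (adjusted p = 0.102). At v6 and v8 the lines were thus not separated. The 4 splice sites of this choice are shown, on the plus strand with exon bases in capitals: the donor of exon 5 with 20 exon and 20 intron bases, and the acceptors of v2, v3 and exon 15 with 40 intron and 20 exon bases. In GRCh37 they lie at chr11:35211593-35211632, chr11:35218253-35218312, chr11:35219628-35219687 and chr11:35236359-35236418.
CD44 exon 5 donor: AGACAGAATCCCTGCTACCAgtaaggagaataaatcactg
CD44 exon 6 (v2) acceptor: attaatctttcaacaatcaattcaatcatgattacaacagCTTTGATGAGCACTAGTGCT
CD44 exon 7 (v3) acceptor: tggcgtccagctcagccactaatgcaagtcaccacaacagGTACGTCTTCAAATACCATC
CD44 exon 15 acceptor: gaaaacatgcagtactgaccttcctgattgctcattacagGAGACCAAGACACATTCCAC

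**Figure D4:**
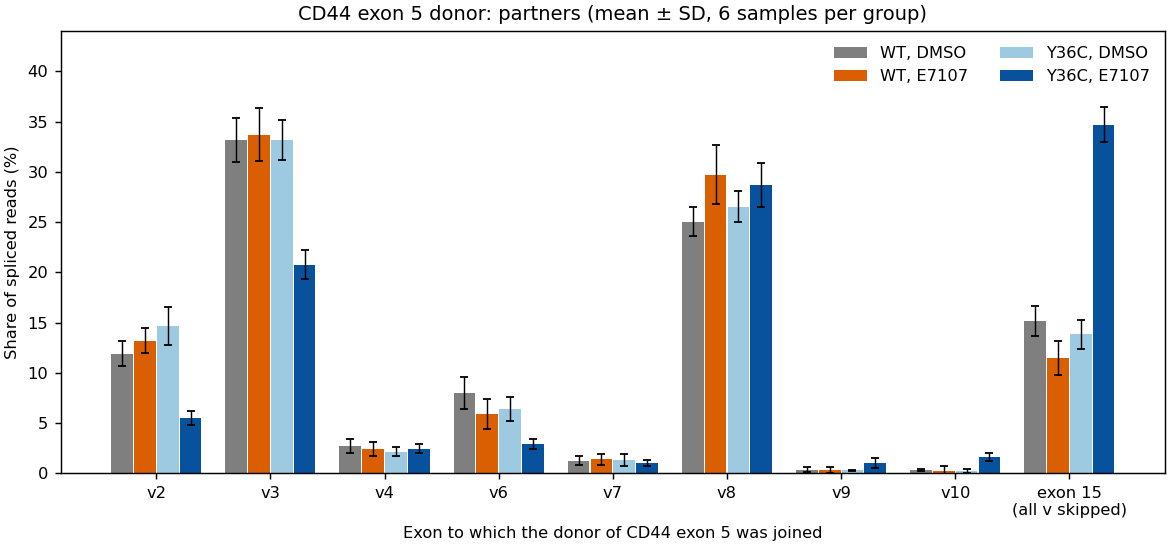
Share (%, vertical axis, from 0) of the spliced reads at the donor of CD44 exon 5 that joined it to each downstream exon (horizontal axis). Bars are means and whiskers SDs of 6 samples per group, and the joint to v5, at or near 0 in all groups, is left out. In Y36C cells under E7107 the joint to exon 15 stands at 34.7% and those to v2 and v3 at 5.54% and 20.8%, while the 4 groups are close together at v8.

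In ENAH inclusion of exon 11a, the exon followed for the program, fell in Y36C cells. Exon 11a, of 63 bases, is the epithelial exon of the gene and is not part of the reference transcript. The junction that joins it to the next exon took, at its acceptor, a lowest, median and highest share of 6.82%, 8.04% and 9% in Y36C cells under DMSO and 2.49%, 3.71% and 4.81% under E7107 (log odds fell by 0.71 ± 0.17, adjusted p = 0.0121). In WT cells it took 8.44%, 12.1% and 15.4% under DMSO and 6.67%, 8.95% and 18.5% under E7107, which was not called (adjusted p = 0.708). The groups separated in Y36C cells and overlapped in WT cells, but the interaction of -0.55 ± 0.25 did not pass (adjusted p = 0.141). The junction on the other side of 11a fell as well in Y36C cells, from 7.78% ± 2.05 to 3.32% ± 0.91 (adjusted p = 0.0208).

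Exon 6 of ENAH, of 111 bases, was named because its skipping junction had the largest called rise of the gene in Y36C cells, so the values are a description of that choice. It was skipped in 5.94%, 8.16% and 11.8% of spliced reads at the acceptor in Y36C cells under DMSO and in 16.2%, 19.2% and 24.8% under E7107 (adjusted p = 0.00588). In WT cells the means were 4.99% ± 2.06 and 4% ± 3.64 (adjusted p = 0.522), and the interaction of 1.42 ± 0.48 was called (adjusted p = 0.0376). Both exons are shown with 40 intron bases before and 20 after, 5′ to 3′ on the minus strand, exon in capitals. They lie at chr1:225692693-225692755 and chr1:225704898-225705008 of GRCh37.
ENAH exon 11a: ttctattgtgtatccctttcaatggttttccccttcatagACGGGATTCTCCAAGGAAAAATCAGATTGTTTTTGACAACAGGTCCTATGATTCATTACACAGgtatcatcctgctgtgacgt
ENAH exon 6: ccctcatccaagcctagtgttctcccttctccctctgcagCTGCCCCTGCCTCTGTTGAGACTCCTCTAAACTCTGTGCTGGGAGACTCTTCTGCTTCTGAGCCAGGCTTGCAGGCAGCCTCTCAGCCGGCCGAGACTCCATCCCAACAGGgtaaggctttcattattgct
Of the ENAH boundaries 17 of 28 rose in WT cells, 60.7% beside 50.3% of all boundaries. In Y36C cells 4 of 12 rose, 33.3% beside 13.3%. Just before exon 6, the donor of intron 5 rose in both lines, from 6.59% ± 1.65 to 33.2% ± 6.69 in WT cells (adjusted p = 5.08e-06) and from 3.45% ± 2.42 to 13.1% ± 2.42 in Y36C cells (adjusted p = 0.0105), and the interaction was not called (adjusted p = 0.416). The acceptor of exon 11a had a boundary PSI of 7.33% ± 7.57 and 47.2% ± 18.5 in WT cells (adjusted p = 0.00165), with a lower effect in Y36C cells (adjusted p = 0.0224). The acceptor of a longer annotated form of exon 6, at position 225705693, rose in both lines, to 70% ± 20.4 in WT cells and 74.6% ± 14.8 in Y36C cells.

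In CTNND1 the exons followed for the program are exons 2 and 3, whose skipping removes the first start codon. The rows around them differed by the splice site at which they were measured. From the acceptor of exon 4, the junction that left out both from the most upstream exon 1 donor held 77.1% ± 1.93 of spliced reads in Y36C cells under DMSO and 65.9% ± 1.81 under E7107 (adjusted p = 0.0349), against 78.7% ± 4.56 and 82.7% ± 4.57 in WT cells (adjusted p = 0.522), with an interaction of -0.80 ± 0.23 (adjusted p = 0.0174). At the donor of the same junction the means went from 66.5% to 56.5% in Y36C cells and from 67% to 56% in WT cells, neither of which was called. The interaction called at the acceptor was not called at the donor, at 0.04 ± 0.22 (adjusted p = 0.932). From that donor the junction that also leaves out exon 4 rose in Y36C cells, from 28.2% ± 2.72 to 40.5% ± 4.28 (adjusted p = 0.0488), with nearly the same means in WT cells, 26.5% ± 3.90 and 38.2% ± 6.33, that were not called (adjusted p = 0.121). The joint of exon 3 to exon 4, the sign of exon 3 inclusion, stood at 5.51% and 4.72% of the reads at the exon 4 acceptor in Y36C cells and was not called in either line.

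Farther down the gene exon 18, of 63 bases, was left out more often in Y36C cells. Its skipping junction took 1.02%, 2.43% and 3.15% of spliced reads at the donor under DMSO (lowest, median, highest) and 4.92%, 6.42% and 7.59% under E7107 (adjusted p = 0.00853). The WT means were 2.18% ± 0.60 and 4.32% ± 2.05 (adjusted p = 0.257), and the interaction was not called (adjusted p = 0.41). The loss of exons 17 and 18 together was called in WT cells, at 0% in all DMSO samples and 2.45% ± 1.58 under E7107 (adjusted p = 0.00382). Exon 18 is shown on the plus strand, chr11:57581783-57581845 of GRCh37 in capitals, with 40 intron bases before it and 20 after it.
CTNND1 exon 18: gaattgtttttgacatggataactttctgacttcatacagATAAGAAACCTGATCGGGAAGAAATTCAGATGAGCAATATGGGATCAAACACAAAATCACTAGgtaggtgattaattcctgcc
Of its boundaries 26 of 38 tested rose in WT cells, 68.4% beside 50.3% of all boundaries. In Y36C cells 0 of 14 were called, where 13.3% of all boundaries rose, and 1 had an unadjusted p under 0.05. At the donor of intron 1 the PSI went from 8.23% ± 6.53 to 45.4% ± 14.6 in WT cells (adjusted p = 0.00105), and that of intron 10 from 0.288% ± 0.317 to 8.17% ± 4.11 (adjusted p = 2.31e-05) with a lower effect in Y36C cells (adjusted p = 4.75e-06). An acceptor 3 bases downstream of the main one after exon 20 was reached by skipping exon 20 in 97.7% ± 3.55 of its reads in Y36C cells under DMSO and 89.2% ± 3.95 under E7107 (adjusted p = 0.0158), with an interaction of -2.68 ± 0.89 (adjusted p = 0.0355).

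CDH1 had low boundary PSI in every group, and the only skipping called in it was of exon 2, in Y36C cells. Of 16 boundaries 3 rose in WT cells, 18.8% beside 50.3% of all boundaries. The largest rise was at the acceptor of intron 10, from 1.44% ± 2.05 to 5.86% ± 2.83 (adjusted p = 0.0153). In Y36C cells 0 of 9 were called, where 13.3% of all boundaries rose, and 3 had an unadjusted p under 0.05. At the acceptor of intron 11 the WT mean was 4.12% ± 3.56 under E7107 and 0% in all 6 DMSO samples (adjusted p = 0.00343). The junction from exon 1 to exon 3 was at 0% in all 12 WT samples. In Y36C cells it was above 0 in 2 of 6 samples under DMSO, at 16% and 6.90%, and in all 6 under E7107, at 9.80%, 20% and 26.5% (lowest, median, highest). Since 1 DMSO sample reached 16%, the Y36C groups overlapped. The rise of 2.35 ± 0.54 in log odds was called (adjusted p = 0.0106), as was the interaction (adjusted p = 0.00428). The junction is in no GENCODE transcript of the gene. Exon 2, of 115 bases, lies at chr16:68772200-68772314 of GRCh37 on the plus strand, and is shown in capitals with 40 intron bases before and 20 after.
CDH1 exon 2: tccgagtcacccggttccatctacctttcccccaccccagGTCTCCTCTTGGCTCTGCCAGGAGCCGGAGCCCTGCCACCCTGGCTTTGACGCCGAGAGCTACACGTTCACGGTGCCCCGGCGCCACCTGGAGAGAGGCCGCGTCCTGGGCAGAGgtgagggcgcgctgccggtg

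EPCAM changed at few sites. Only 6 of its boundaries could be tested. Of these 5 rose in WT cells, beside 50.3% of all boundaries, and 3 in Y36C cells, beside 13.3%. No skipping row passed the filter on low values. Intron 8 rose slightly in both lines. At its donor the WT mean went from 1.19% ± 0.61 to 3.03% ± 0.84 (adjusted p = 0.0115) and the Y36C mean from 1.07% ± 0.13 to 4.12% ± 0.53 (adjusted p = 0.000975), and the interaction was not called (adjusted p = 0.265). Its large change was at the donor of an annotated alternative first exon, at chr2:47596949. There the boundary took 0% in 5 of 6 WT samples under DMSO and 37.5% in the other, and 43.8%, 74.3% and 80% under E7107 (adjusted p = 5.37e-05), with 28.6% at most in any Y36C sample.

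ITGA6 had strong retention in WT cells, and a rise of exon skipping was called in Y36C cells alone. The interaction was called at 2 of 7 skipping rows, higher in Y36C cells. In WT cells 50 of 51 boundaries rose, 98% beside 50.3% of all boundaries. At 47 the effect was lower in Y36C cells, 92.2% beside 41.3%. The donor of intron 2 had a lowest, median and highest PSI of 0.709%, 1.17% and 1.43% in WT cells under DMSO and 26.6%, 35% and 41.4% under E7107 (log odds +3.20 ± 0.17, adjusted p = 1.06e-08). In Y36C cells its highest sample was 1.94%, and the interaction was -2.98 ± 0.29 (adjusted p = 1.01e-08). Of the intron ends that rose in Y36C cells the largest change was at the donor of intron 17, from 0.375% ± 0.293 to 5.12% ± 1.62 (adjusted p = 0.000379), next to 0.566% ± 0.518 and 11.5% ± 4.03 in WT cells, and the interaction was not called there (adjusted p = 0.065). The acceptor of that intron went from 1.58% ± 1.57 to 6.26% ± 1.51 in Y36C cells (adjusted p = 0.0107) and from 2.06% ± 1.10 to 19.3% ± 3.04 in WT cells, and there the effect was lower in Y36C cells (adjusted p = 0.0326).

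Exon 20 of ITGA6, of 174 bases, was skipped in 0.662%, 2.34% and 5.03% of spliced reads at the donor in Y36C cells under DMSO and in 9.47%, 12.8% and 15.6% under E7107 (adjusted p = 0.00168), without overlap. The WT means were 1.58% ± 1.17 and 3.64% ± 2.23 (adjusted p = 0.257), and the interaction was not called (adjusted p = 0.119). The exon lies at chr2:173354213-173354386 of GRCh37 on the plus strand.
ITGA6 exon 20: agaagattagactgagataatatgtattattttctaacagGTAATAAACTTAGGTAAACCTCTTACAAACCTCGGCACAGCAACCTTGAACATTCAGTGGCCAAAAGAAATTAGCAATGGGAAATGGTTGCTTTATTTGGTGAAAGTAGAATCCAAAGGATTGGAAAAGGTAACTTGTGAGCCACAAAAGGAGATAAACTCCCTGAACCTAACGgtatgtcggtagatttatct
Exon 25, of 130 bases, separates the A form of integrin alpha 6, which holds it, from the B form. Its skipping junction took 31.8% ± 4.25 and 40.9% ± 4.08 of spliced reads at the donor in Y36C cells (adjusted p = 0.173) and 33.7% ± 5.21 and 31.7% ± 4.10 in WT cells (adjusted p = 0.821). The difference in Y36C cells did not pass although the donor means were 9.05 percentage points apart.

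**Figure D5:**
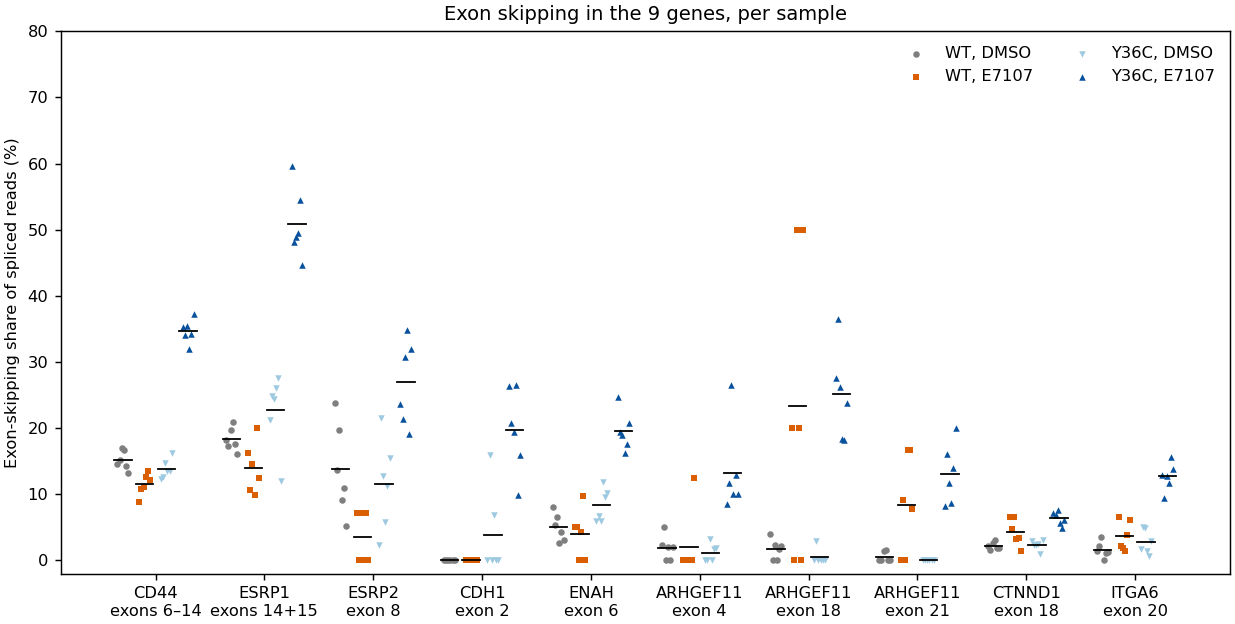
Share of spliced reads (%, vertical axis) that skipped the named exon or exons, for 10 events in 8 genes (horizontal axis), measured at the donor or acceptor given in the text. Each point is 1 sample, marked by group, and black lines are group means. Under E7107 the Y36C means reach 34.7% for CD44 exons 6 to 14 and 50.9% for ESRP1 exons 14 and 15. Several events were picked for a called rise in Y36C cells or added after their values were seen. That all 10 rose there follows in part from this choice and is no test. The wide WT range of ARHGEF11 exon 18, 0% to 50%, is visible.

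The exons whose single skipping rose in Y36C cells, 11 in 6 genes, were chosen by that change, so what they share is given without a test. Their median length was 111 bases, from 24 to 190, next to 123 bases for the other 147 internal exons of the 9 reference transcripts. A length that is a multiple of 3, which keeps the reading frame, was found in 7 of the 11 and in 64 of the 147. Median GC content was 57.1% and 49.7%. Of the 11 exons 6 were in ARHGEF11, where the median GC content was 53.6% next to 56.5% for the other 33 exons of that gene. Without ARHGEF11 it was 60.4% over 5 exons next to 47.9% over 114. In the 20 bases just before the AG of the acceptor the median share of C and T was 75% in both sets.

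Other genes tied to the same program were counted from lists chosen by name. In 25 genes regulated by ESRP proteins outside the 9, with 24 measured in WT cells, 341 of 770 boundaries rose in WT cells (44.3%) and 79 of 495 in Y36C cells (16%), with median changes of 4.65 and 1.73 points. Of their skipping rows 28 of 330 rose in WT cells (8.48%) and 27.6% of 366 in Y36C cells, next to the 12.6% and 17.3% of all rows given above. Of 19 genes of adherens and tight junctions 16 had boundaries tested in WT cells and 18 in Y36C cells. There 175 of 332 boundaries rose in WT cells (52.7%) and 27 of 222 in Y36C cells (12.2%), near the shares of all boundaries, 50.3% and 13.3%. Of their skipping rows, tested in 11 and 15 of the genes, 19 of 79 rose in WT cells (24%) and 19 of 87 in Y36C cells (21.8%). In 12 other splicing regulators of epithelial or mesenchymal cells 171 of 211 boundaries rose in WT cells (81%) and 33 of 125 in Y36C cells (26.4%). Of their skipping rows 38 of 136 rose in WT cells (27.9%) and 36 of 113 in Y36C cells (31.9%). Each list is to be set beside 50.3% and 13.3% of all boundaries and 12.6% and 17.3% of all skipping rows.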

How the data were processed

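RNA-seq of polyadenylated RNA was done in 24 samples, 6 for each combination of PHF5A genotype and treatment. The authors aligned reads to hg19 (GRCh37) with STAR and deposited, for each sample, percent values: the percentage of the reads at a splice site that support each junction or exon-intron boundary. No read counts were used, so depth and counting error are unknown. Of 1830076 rows in each file 6433 on the mitochondrial genome or without a strand were left out. The spliced share was recomputed as a junction's percentage over the sum of the spliced rows at its site. Rows with reads in all samples compared and a mean from 1% to 99% were tested with limma 3.58.1 in R 4.3.3 on the natural log odds, with an offset of 1 percentage point and Benjamini-Hochberg adjustment over all rows, with the 4 groups compared by E7107 within each line, by line under DMSO and by their interaction. The fit was tested on simulated data. Intron ends, exons and sequences came from GENCODE and the GRCh37 genome (samtools 1.23.1), in 1-based coordinates. The members and lists were chosen with earlier results of these data known. Named rows were the known alternative exons and, per gene, the boundaries and skipping junctions with the largest called differences; the donors of CD44 introns 2 and 5 and ARHGEF11 exons 4 and 21 were added after their values were seen. The alternatives were another offset, no log, other filters, a minimum difference and the replicate number as a block.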

Additional observations from a re-analysis of the deposited data

Results flagged for a closer look

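In 55 named rows each group of 6 samples was searched for a sample far from the others, with Dixon's gap ratio. Of 220 groups 23 held such a sample, where chance gives about 1 in 20, and many of them were groups in which the other samples were at 0.

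For CD44 the joint of exon 5 to v10, at its acceptor, had single samples of 0.6568% in WT cells under DMSO and 1.385% under E7107. For ITGA6 exon 25 skipping, at the acceptor, 1 WT DMSO sample had 40.13%. For ARHGEF11 exon 38 skipping 1 WT sample under E7107 had 83.33% where the rest had 100%. In ARHGEF11 intron 36, at the donor, single WT samples had 9.259% under DMSO and 50% under E7107. At the acceptor of ARHGEF11 intron 7 single Y36C samples had 15.79% under DMSO and 53.85% under E7107, next to 15.38% in the nearest treated sample. Single Y36C DMSO samples had 5.357% at the acceptor of ARHGEF11 intron 15 and 2.941% for skipping of exon 18, with the rest at 0.

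In ESRP2 single samples had 24.76% at the acceptor of intron 10 and 0% at that of intron 12 in WT cells under DMSO, and 35.62% under DMSO and 57.5% under E7107 at that of intron 7 in Y36C cells. At the acceptor of ESRP1 intron 3, 1 treated Y36C sample had 5.479% and the rest 0. The alternative EPCAM donor had 37.5% in 1 WT DMSO sample and 43.75% in 1 treated WT sample. In CDH1 single samples had 5.263% at the acceptor of intron 10 in WT cells under DMSO, and 1.818% under DMSO and 1.562% under E7107 at that of intron 11 in Y36C cells. The CTNND1 intron 10 donor had 1.01% in 1 treated Y36C sample, skipping of CTNND1 exons 17 and 18 had 0.3968% in 1 Y36C DMSO sample, and the donor of ITGA6 intron 15 had 1.149% in another.

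The effect of E7107 differed between the lines, by the limma interaction, at 30 named rows. The values that follow are in percentage points, and each is the Y36C change less the WT change. Among spliced shares, the effect was higher in Y36C cells for the CD44 joint of exon 5 to exon 15, by 24.53 at the donor and 22.11 at the acceptor, and for its joint to v4 at the acceptor, by 5.588. Likewise it was higher for ESRP2 exon 8 skipping, by 25.63 at the acceptor and 25.17 at the donor. For ESRP1 the skipping of exons 14 and 15 gave 32.48 at the donor and 32.37 at the acceptor, and that of exon 14 gave 22.65 at the acceptor. ENAH exon 6 skipping gave 12.22 and CDH1 exon 2 skipping 15.96. A negative difference was found for the CD44 joint of exon 5 to v3, at -12.96, and for the CTNND1 junctions that skip exons 2 and 3, at -15.21, and exon 20, at -12.34.

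Among boundaries the difference was positive at 2 named CD44 sites, 55.86 at the acceptor of intron 5 and 53.57 at the donor of intron 6. All others were negative. In ARHGEF11 they were -61.67 and -62.37 at the donor and acceptor of intron 36 and -32.08 at the acceptor of intron 15. In ESRP2 they were -52.19, -45.15 and -16.84 at the acceptors of introns 10, 12 and 2. In ESRP1 they were -6.341 and -6.531 at the acceptors of introns 2 and 3. The alternative EPCAM donor gave -63.92, the acceptor of ENAH exon 11a -37.63, the donor of CTNND1 intron 10 -8.072 and the acceptor of CDH1 intron 11 -4.165. In ITGA6 they were -32.75 and -22.34 at the donors of introns 2 and 15 and -12.58 at the acceptor of intron 17.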

How the results depend on the processing

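Counts here are of member rows called in either direction. With a difference of at least 10 percentage points also required, the PSI calls fell from 458 to 298 in WT cells and from 155 to 76 in Y36C cells, and the spliced-share calls from 21 to 10 in WT cells and from 86 to 41 in Y36C cells; this only removes calls. A filter on means from 5% to 95%, which tests fewer rows, gave 265 interaction calls for PSI in place of 422 and 13 spliced-share calls in WT cells. A filter that asked for a value above 0 in every sample of some group gave 40 spliced-share calls in WT cells; the cause was not tested. Under the offsets of 0.1 and 5 percentage points and the percentage without a log, each of these counts stayed within 1.5 times its value, and the count under DMSO stayed at 0 under every alternative run. With the replicate block PSI calls were 434 in WT cells, 106 in Y36C cells and 413 for the interaction. Samples with the same number did not deviate together, with correlations from -0.00625 to 0.00743. Counted over both groups of 6 samples in each of the 3 comparisons, 1, 3 and 4 samples correlated best with their own number. The labels give them only a shared number, and whether they share a culture or batch cannot be told from these values. Over all alternatives the named rows kept direction and call in 2036 of their values, lost the call in 78 and gained one in 58, and no direction of a called value turned. Without read counts, a percentage from few reads cannot be told from one from many.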
